A study of Arabidopsis thaliana with 4 samples.

Results

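The GH3 genes described here are 9 of the 27416 gene models measured in seedlings of Arabidopsis thaliana. They were chosen by locus identifier and are GH3.1 (AT2G14960), GH3.2 (AT4G37390), GH3.3 (AT2G23170), GH3.4 (AT1G59500), GH3.5 (AT4G27260), GH3.6 (AT5G54510), GH3.9 (AT2G47750), GH3.17 (AT1G28130) and DFL2 (AT4G03400), the last also called GH3.10. All 9 had a row in the deposited values. The rule that picks them uses no measured value.

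The study set 2 samples grown in darkness against 2 grown in red light, to find genes regulated by red light signalling. All 4 were wild-type Col-0 seedlings, raised on plates of 0.5-strength Murashige-Skoog medium that held 1% sucrose. Both groups had shared 4 days in the cold at 4 °C and 12 h of white light, and were then kept for 4 days in darkness or under red light (60 µmol per m2 and s), so that all had grown for 4.5 days. Poly(A) RNA of the seedlings was sequenced, and each condition was deposited as 1 column of reads and 1 of RPKM (reads scaled to the coding length and to all reads of the column). How the 2 replicates entered a column is not stated, so replicate error is unknown for every value and difference below, and p-values are not given. Brackets hold exact 95% intervals that cover counting error only.

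GH3 enzymes join a plant hormone to an amino acid. Those of the auxin branch act on indole-3-acetic acid, the main auxin, and so lower the pool of free hormone. Several of their genes are classic early targets of auxin itself, read through promoter elements of the type TGTCTC that bind auxin response factors, which makes them part of a feedback on auxin level. Auxin drives the elongation of the hypocotyl in dark-grown seedlings, and plants that overexpress certain GH3 genes are short, hence the name DWARF IN LIGHT (DFL) for a pair of them.

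The dark column held 41106535 reads and the red-light column 33521717. A gene was called higher or lower in red light where RPKM + 1 differed by 2-fold or more (1 on the log2 scale) and the larger value reached 10 RPKM. By this rule 8.69% of the 12625 genes of at least 10 RPKM were called higher and 5.35% lower, and their median log2 change was -0.11. Genes known to mark the conditions went with the labels: PORA, a protochlorophyllide oxidoreductase of etiolated tissue, was at 878 RPKM in darkness and 55.6 in red light, and ELIP1, an early light-induced protein, at 33.5 and 2333 RPKM. PIL1, a dark-grown and shade marker, was at 36.2 and 1.96 RPKM, CHS, chalcone synthase, at 11.1 and 326 RPKM, and LHCB2.2, a chlorophyll-binding antenna protein, at 85.4 and 3015 RPKM.

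The GH3 genes did not move as a block. Changes past 2-fold were called for GH3.2 and GH3.3, both lower in red light, and for none in the other direction. These were 2 of the 5 members that reached 10 RPKM, beside 5.35% of all genes tested. Both reached 10 RPKM through the dark column alone, so their place among the 5 rests on the higher dark value. GH3.5, GH3.6 and GH3.17 reached 10 RPKM and were not called, and GH3.1, GH3.4, GH3.9 and DFL2 stayed below it in both columns. Without regard to that minimum, the red-to-dark ratio of RPKM was below 1 for GH3.1, GH3.2, GH3.3 and GH3.5 and above 1 for GH3.6, GH3.9, GH3.17 and DFL2. The counting interval excluded 1 for all 8, but it also lay above 1 for 27.7% and below 1 for 36.8% of the 22370 genes with more than 3 reads in a column, so most genes measured meet it. The remaining member, GH3.4, had too few reads for a ratio.

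**Figure D1:**
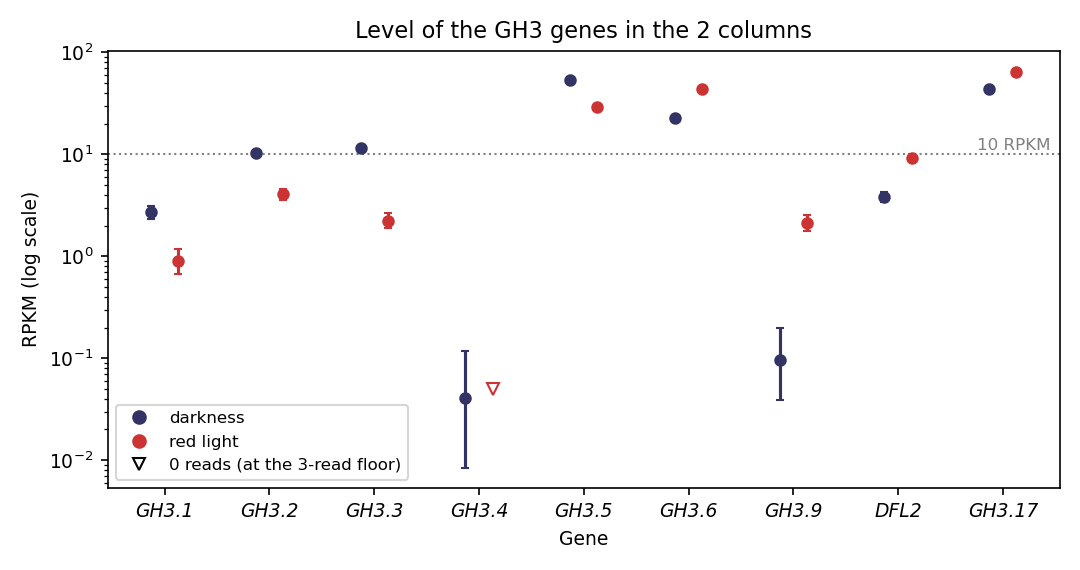
RPKM of each GH3 gene (log axis) in the dark column and in the red-light column, with exact 95% counting intervals and no replicate error. GH3.1, GH3.2, GH3.3 and GH3.5 lie lower in red light and GH3.6, GH3.9, DFL2 and GH3.17 higher. GH3.4 had 3 and 0 reads, and its red-light marker stands at the floor of 3 reads.

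GH3.1 to GH3.4 are auxin-inducible close relatives, which conjugate indole-3-acetic acid. GH3.3 had 844 reads or 11.5 RPKM in darkness and 134 reads or 2.24 RPKM in red light. It was 5.14-fold lower in red light (4.28 to 6.21), with a log2 change of -1.95 on RPKM + 1, the 134th steepest fall of the 12625 genes. GH3.2, known as YADOKARI 1 from a short-hypocotyl line in which it is overexpressed, had 772 reads or 10.4 RPKM in darkness and 245 reads or 4.03 RPKM in red light. It was 2.57-fold lower (2.22 to 2.98), with a log2 change of -1.17. Both genes passed the minimum through the dark column alone, by a narrow margin.

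GH3.1 had 197 reads or 2.70 RPKM in darkness and 53 reads or 0.892 RPKM in red light, a 3.03-fold lower value (2.23 to 4.19). It lay below 10 RPKM in both columns and so could not be called. For GH3.4, 3 reads were counted in darkness and 0 in red light, both at or under the floor of 3 reads, which for its coding length is 0.0407 RPKM in the dark column and 0.0499 in the red-light column. It was not detectable above that floor at this depth. Together the 4 genes summed to 24.6 RPKM in darkness and 7.16 in red light, and their reads per total had a ratio of 0.292 (0.262 to 0.324).

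GH3.2 and GH3.3 lay close together in darkness and apart in red light. In darkness the level of GH3.3 per coding length was 1.11 times that of GH3.2 (1.00 to 1.22), and the intervals of the 2 levels overlapped. In red light it was 0.554 times that of GH3.2 (0.446 to 0.687). The step down between these columns was thus larger for GH3.3, with counting error alone considered. The same reads give red-to-dark ratios of 0.195 (0.161 to 0.234) for GH3.3 and 0.389 (0.336 to 0.450) for GH3.2.

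GH3.5 and GH3.6 are a pair of close relatives that differed in opposite directions. GH3.5, also called WES1, conjugates auxin and is known to act on salicylic acid too. It had 4022 reads or 53.2 RPKM in darkness and 1789 reads or 29.0 RPKM in red light, 1.83-fold lower (1.73 to 1.94). GH3.6, also called DWARF IN LIGHT 1 (DFL1), is a gene whose overexpression shortens the hypocotyl in light. It had 1707 reads or 22.6 RPKM in darkness and 2706 reads or 43.9 RPKM in red light, with a red-to-dark ratio of 1.94 (1.83 to 2.07). On RPKM + 1 the log2 changes were -0.85 and 0.93, so both lay just inside the 2-fold threshold and neither was called.

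The order of the pair turned between the conditions while their sum hardly differed. In darkness GH3.5 stood at 2.36 times the level of GH3.6 (2.23 to 2.49), and in red light GH3.6 stood at 1.51 times the level of GH3.5 (1.42 to 1.61). The reads of both genes together had a red-to-dark ratio of 0.962 (0.925 to 1.00). Both coding sequences are 1839 bases long, so the same reads give the same RPKM.

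Few 31-base stretches of the pair are exactly alike. The sources used here give no aligner, so the share of reads that could match both genes was not tested. The coding sequences were 84.1% identical over 1839 aligned bases, with 42 bases as the longest identical run. Of the 31-base words of each gene, 0.66% occurred in the other. The pair is shown over the 60 aligned bases where it is most alike, coding bases 358 to 417 with 3 differences, and over the 60 where it is least alike, coding bases 19 to 78 with 22 differences. Capitals mark the bases that differ, and all 4 run 5′ to 3′ on the coding strand of the TAIR10.1 reference.
GH3.5, most alike: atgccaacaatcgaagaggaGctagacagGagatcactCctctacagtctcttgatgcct
GH3.6, most alike: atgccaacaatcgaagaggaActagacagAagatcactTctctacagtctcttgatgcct
GH3.5, least alike: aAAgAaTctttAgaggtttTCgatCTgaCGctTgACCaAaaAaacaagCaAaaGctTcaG
GH3.6, least alike: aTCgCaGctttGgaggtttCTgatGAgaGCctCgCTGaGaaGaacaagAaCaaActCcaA

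GH3.2 and GH3.4 shared more coding words than GH3.5 and GH3.6 did, and the remaining members shared few or none. GH3.2 and GH3.4 were the most alike of the 9, with 90.9% identical bases, and 8.87% of the words of GH3.2 occurred in another gene, 135 of its 158 shared words in GH3.4. How reads from those words were divided between GH3.2 and GH3.4 is not known. GH3.3 shared 1.48% of its words, all with GH3.2. GH3.1, GH3.9, GH3.17 and DFL2 shared no 31-base word with another gene model. No coding sequence of the 9 lay inside the span of another annotated gene on either strand. The sources used here do not say how reads matching several genes were treated.

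**Figure D2:**
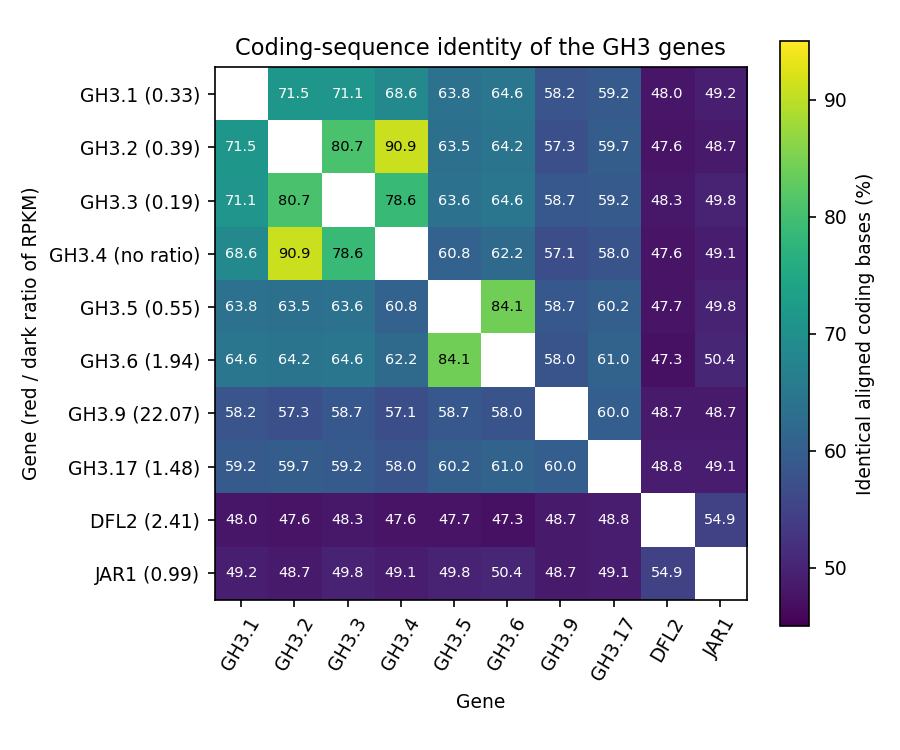
Percentage of identical bases in aligned coding sequences of the 9 GH3 genes and JAR1, with the red-to-dark ratio of RPKM beside each gene name. GH3.5 and GH3.6 are 84.1% identical with ratios of 0.55 and 1.94, and DFL2 is most like JAR1 at 54.9%.

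GH3.17 and GH3.9 are auxin-branch members outside these close groups. GH3.17 favours glutamate as the amino acid and is known from studies of hypocotyl growth, where its loss raises free auxin. It had 3247 reads or 43.2 RPKM in darkness and 3930 reads or 64.1 RPKM in red light, with a red-to-dark ratio of 1.48 (1.42 to 1.56), and was not called. It was the second most abundant member in darkness and the most abundant in red light.

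GH3.9, studied mainly in roots, had 7 reads or 0.0969 RPKM in darkness and 126 reads or 2.14 RPKM in red light. The ratio of 22.1 (10.4 to 56.0) was the largest of the members, but it rests on 7 reads in the dark column. With the added 1 the log2 change was 1.52, and the gene was too low in both columns to be called. With a minimum of 1 RPKM it and DFL2 were called higher, where 7.45% of 19603 genes were called higher and 4.19% lower.

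DFL2 stands apart from the auxin branch in sequence. It was isolated as DWARF IN LIGHT 2, its reduced expression is known to lengthen the hypocotyl in red and blue light, and more recent work assigns it to jasmonate conjugation. It had 278 reads or 3.81 RPKM in darkness and 547 reads or 9.19 RPKM in red light. The ratio was 2.41 (2.08 to 2.80) and the log2 change 1.08, past the 2-fold threshold but under the minimum of 10 RPKM. With a minimum of 5 RPKM it was called higher, the single member called in that direction, where 8.24% of 15518 genes were called higher and 4.82% lower. Its level in darkness was 0.367 times that of GH3.2 (0.319 to 0.422), and in red light 2.28 times that of GH3.2 (1.96 to 2.66).

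The coding sequence of DFL2 was 47.3% to 48.8% identical to those of the other 8 genes. It was 54.9% identical to JAR1, the GH3 enzyme that makes the active jasmonate by joining it to isoleucine. JAR1 itself differed little, at 46.5 RPKM in darkness and 46.0 in red light, a ratio of 0.989 (0.940 to 1.04).

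**Figure D3:**
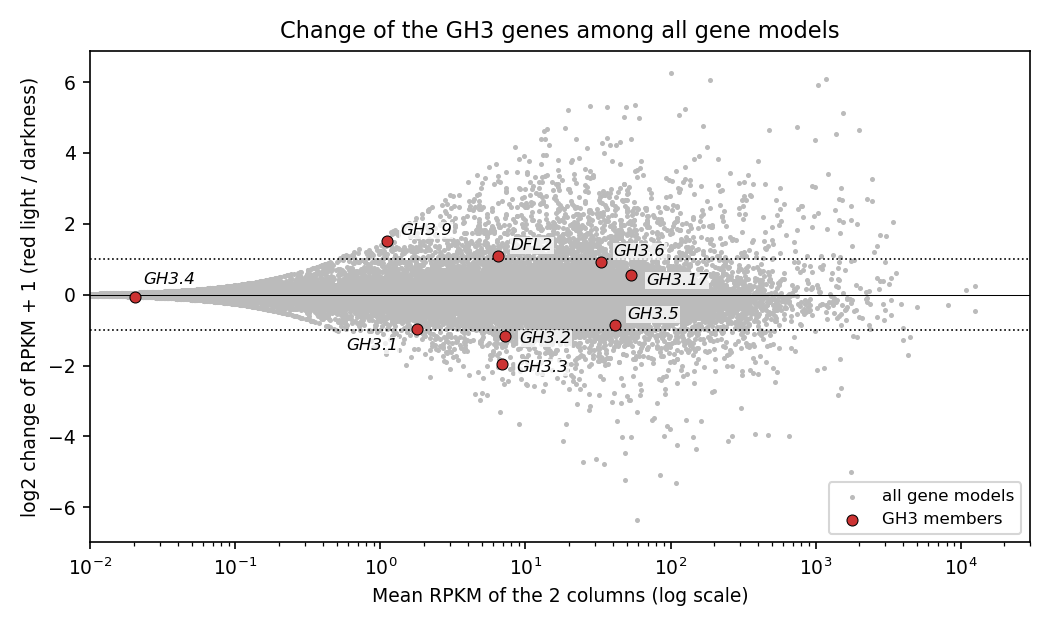
Log2 change of RPKM + 1 (red light over darkness) against the mean RPKM of both columns (log axis), for gene models with a mean above 0.01 RPKM in grey and the 9 GH3 genes in red. Dotted lines mark a 2-fold difference. GH3.2 and GH3.3 lie below the lower line, GH3.9 and DFL2 above the upper line, and GH3.1, GH3.5 and GH3.6 just inside them.

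Within each condition the order of levels could be read for most neighbours. In darkness it ran GH3.5, GH3.17, GH3.6, GH3.3, GH3.2, DFL2, GH3.1, GH3.9 and GH3.4. The counting intervals of GH3.3 and GH3.2 overlapped, as did those of GH3.9 and GH3.4. In red light it ran GH3.17, GH3.6, GH3.5, DFL2, GH3.2, GH3.3, GH3.9, GH3.1 and GH3.4, and the intervals of GH3.3 and GH3.9 overlapped. Among all gene models, GH3.17 lay at the 84.4th percentile of levels in darkness and the 89.4th in red light, and DFL2 at the 42.9th and the 55.6th.

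The make-up of the GH3 transcripts differed more than their total. The summed RPKM of the 9 genes was 147 in darkness and 155 in red light. By reads per total the ratio was 1.06 (1.03 to 1.08), and without GH3.17, the member with the most reads, it was 0.877 (0.847 to 0.908), so the direction of the total depends on that gene. GH3.5, GH3.6 and GH3.17 together made up 80.7% of the summed RPKM in darkness and 88.1% in red light. GH3.5 went from 36.1% to 18.7%, GH3.6 from 15.3% to 28.2% and GH3.17 from 29.3% to 41.2%. GH3.2 and GH3.3 held 7.03% and 7.79% in darkness and 2.59% and 1.44% in red light, while DFL2 held 2.58% and 5.91%.

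**Figure D4:**
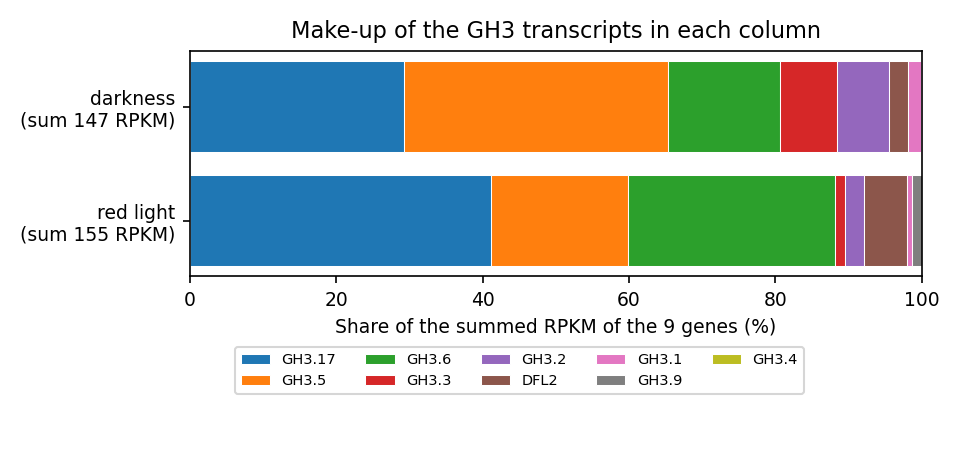
Share of each gene in the summed RPKM of the 9 GH3 genes, in darkness (sum 147 RPKM) and in red light (sum 155 RPKM). The segment of GH3.5 shrinks from 36.1% to 18.7% and those of GH3.6 and GH3.17 widen to 28.2% and 41.2%.

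The sequence before each gene was searched for short motifs, over 250 bases before to 50 after the annotated gene start, on both strands. The motif TGTCTC, the classic auxin response element, occurred in 4 of the 9 windows and in 14.2% of 27443 nuclear protein-coding genes. The 4 were GH3.1, GH3.2, GH3.3 and GH3.5, which are the 4 members with a red-to-dark ratio below 1. Its first base lay 144 bases before the start in GH3.2, 116 before in GH3.3 and 47 before in GH3.5, and at base 32 of the gene in GH3.1. It was not in these windows of GH3.6, GH3.9, GH3.17, DFL2 or GH3.4. The 250 bases before GH3.9 overlap the annotated gene AT2G09955, and those before DFL2 overlap AT4G03405 and AT4G03410. A window of 1000 bases before the start was added after the data were seen. There the motif occurred in 39.6% of genes and in 6 members, those 4 with GH3.4 and GH3.9. It was thus not limited to the members with a ratio below 1. Over the 250 bases before the start alone it occurred in 3 members, without GH3.1, and in 10.9% of genes.

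The other motifs were sparser or common. The motif TGTCGG, another auxin response element, occurred in 0 of the 9 windows and in 5.1% of all. The G-box CACGTG, bound by PIF and HY5 factors of light signalling, occurred in GH3.2 alone, 27 bases before the start, and in 7.7% of all. The related CATGTG occurred in GH3.2, GH3.3 and GH3.17 and in 12.9% of all. The 4 motifs do not overlap each other in these windows.

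The 250 bases before the start are shown for both called genes and for the GH3.5 and GH3.6 pair, from the TAIR10.1 reference, 5′ to 3′ on the strand of the gene. Capitals mark matches to the 4 motifs on either strand. The windows are chr4:17579368-17579617 on the plus strand for GH3.2, chr2:9866563-9866812 on the minus strand for GH3.3, chr4:13653329-13653578 on the plus strand for GH3.5 and chr5:22133689-22133938 on the minus strand for GH3.6. No other annotated gene overlaps them.
GH3.2: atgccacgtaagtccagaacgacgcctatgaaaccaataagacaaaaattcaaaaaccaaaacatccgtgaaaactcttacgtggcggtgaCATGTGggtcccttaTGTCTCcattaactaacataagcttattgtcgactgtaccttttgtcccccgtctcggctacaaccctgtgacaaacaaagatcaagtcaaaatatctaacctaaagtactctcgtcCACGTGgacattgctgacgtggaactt
GH3.3: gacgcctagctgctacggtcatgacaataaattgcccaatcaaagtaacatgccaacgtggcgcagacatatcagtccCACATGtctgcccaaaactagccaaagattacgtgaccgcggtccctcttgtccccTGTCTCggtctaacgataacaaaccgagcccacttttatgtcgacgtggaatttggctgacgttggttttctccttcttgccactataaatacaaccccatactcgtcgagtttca
GH3.5: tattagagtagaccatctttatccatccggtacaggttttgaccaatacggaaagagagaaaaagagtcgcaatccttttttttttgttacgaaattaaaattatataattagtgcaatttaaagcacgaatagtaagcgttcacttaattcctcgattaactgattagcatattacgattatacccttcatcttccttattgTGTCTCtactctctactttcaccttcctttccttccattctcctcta
GH3.6: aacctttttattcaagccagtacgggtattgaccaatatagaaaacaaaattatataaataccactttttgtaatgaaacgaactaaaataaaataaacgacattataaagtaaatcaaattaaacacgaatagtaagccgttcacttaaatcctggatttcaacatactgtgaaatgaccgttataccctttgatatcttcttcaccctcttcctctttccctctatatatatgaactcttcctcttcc
In these letters GH3.2 holds 3 matches, GH3.3 holds 2, of which the first is on the reverse strand, GH3.5 holds 1 and GH3.6 holds none. A match is a run of letters and does not show that a factor binds there.

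The 9 genes are spread over 4 chromosomes of the TAIR10.1 assembly. On the plus strand, GH3.2 spans 17579618 to 17582022 and GH3.5 spans 13653579 to 13656285 of chromosome 4, and GH3.17 spans 9825169 to 9828118 of chromosome 1. On the minus strand, GH3.3 spans 9863855 to 9866562, GH3.1 spans 6451319 to 6453797 and GH3.9 spans 19560127 to 19563960 of chromosome 2. Also on the minus strand, GH3.4 spans 21854493 to 21856614 of chromosome 1, GH3.6 spans 22130964 to 22133688 of chromosome 5 and DFL2 spans 1497536 to 1501599 of chromosome 4. GH3.1 to GH3.6 have 3 coding exons each, and GH3.9, GH3.17 and DFL2 have 4. Coding lengths in the reference equalled those implied by the deposited values for all 9.

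The other 10 GH3 genes of Arabidopsis include enzymes that act on other hormones or on benzoates. Of these, 3 reached 10 RPKM, and 2 of the 10 had 3 reads or fewer in both columns. Among the 3, 1 was called higher, none lower and 2 were not called, beside 8.69% higher and 5.35% lower of all genes tested. GH3.14 was called higher, from 439 reads or 5.29 RPKM in darkness to 917 reads or 13.5 RPKM in red light. Its red-to-dark ratio was 2.56 (2.28 to 2.88), and it passed the minimum through the red-light column alone. Its neighbour GH3.15, which conjugates the auxin precursor indole-3-butyric acid, was at 28.1 and 46.2 RPKM, a ratio of 1.64 (1.55 to 1.74), and was not called. Of the 31-base coding words of GH3.14, 7.14% occurred in another gene, mostly in GH3.15, so the split of some of its reads is uncertain.

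Enzymes that free auxin from its amino acid conjugates stand opposite the GH3 step. Of 7 such hydrolase genes, 5 reached 10 RPKM and none was called. Among all genes tested 8.69% were called higher and 5.35% lower. ILR1, which releases auxin from leucine and phenylalanine conjugates, was at 15.2 RPKM in darkness and 8.39 in red light, a ratio of 0.553 (0.488 to 0.626). IAR3, which acts on alanine conjugates and was the most abundant, was at 63.8 and 46.5 RPKM. The summed RPKM of the 7 was 146 in darkness and 119 in red light.

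Other routes that inactivate auxin included 2 called rises. These were 2 of the 4 genes that reached 10 RPKM, out of 6 in the list, beside 8.69% of all genes tested. DAO2, a relative of the dioxygenase DAO1 that oxidises auxin, rose from 7.12 to 23.7 RPKM, a ratio of 3.33 (2.89 to 3.83). DAO2 reached 10 RPKM through the red-light column alone, so its place among the 4 rests on its rise. DAO1 itself was at 13.2 and 13.3 RPKM. UGT74D1, a glucosyltransferase that makes auxin glucose esters, rose from 41.9 to 108 RPKM, a ratio of 2.57 (2.45 to 2.70). The summed RPKM of the 6 was 74.7 in darkness and 166 in red light, most of it UGT74D1.

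Genes of auxin synthesis and the Aux/IAA repressors, themselves early auxin targets, give the setting for the GH3 values. Of 14 synthesis genes 3 reached 10 RPKM. TAR2, an aminotransferase of the main auxin pathway, rose from 3.88 to 13.6 RPKM and was the single call, beside 8.69% of all genes tested called higher. TAR2 passed the minimum through the red-light column alone. Its relative TAA1, the most abundant, was at 25.3 and 17.6 RPKM. YUC8, the other gene that reached 10 RPKM, was at 18.3 and 9.78 RPKM and was not called. More than 3 reads in a column were counted for 12 synthesis genes. Where both columns held a read, the counting interval of their ratio lay below 1 for 4 and above 1 for 3. The shares were 36.8% and 27.7% over all genes with more than 3 reads in a column, whether or not both columns held one. The summed RPKM of the 14 was 64.3 in darkness and 55.2 in red light. Of 25 Aux/IAA genes 21 reached 10 RPKM, and 4 of these were called lower and none higher, beside 5.35% and 8.69% of all genes tested. IAA12, with a log2 change of 0.99, and IAA28, with 0.95, lay just under the threshold on RPKM + 1, and both were called higher with TMM or DESeq2 factors. IAA20 fell from 94.5 to 11.2 RPKM, IAA29 from 24.1 to 3.35 and IAA19 from 240.2 to 67.6 RPKM, while IAA6 was 2.68-fold lower in red light. Of the called repressors, IAA29 reached 10 RPKM in the dark column alone. IAA16, the most abundant in darkness, was at 448 and 410 RPKM. The median log2 change of the 21 was -0.23, against -0.11 over all genes of at least 10 RPKM.

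**Figure D5:**
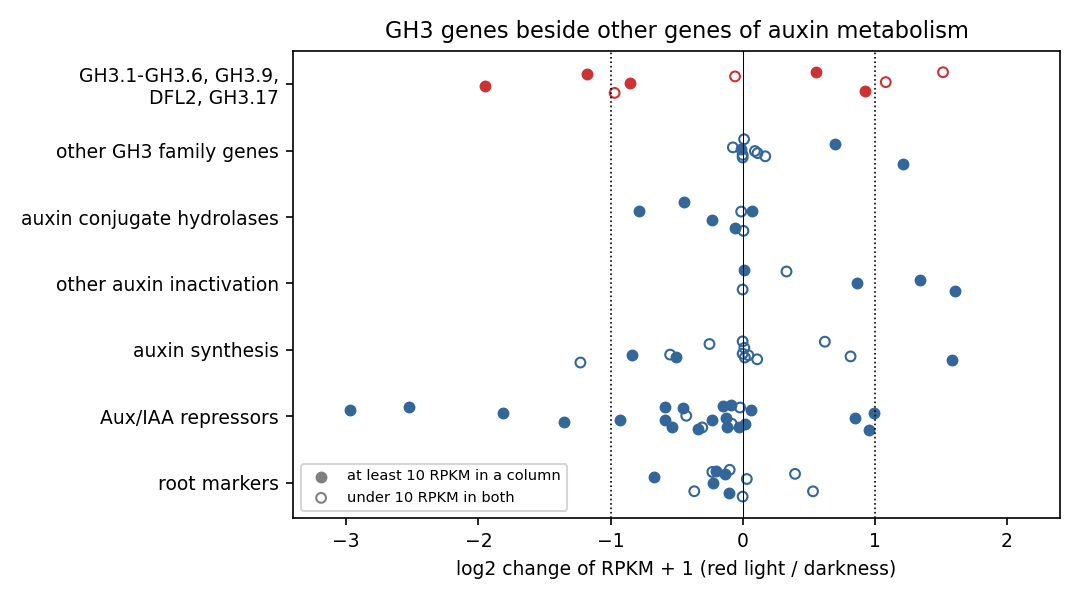
Log2 change of RPKM + 1 (red light over darkness) of each gene in the 9 GH3 genes and in 6 lists, 1 point a gene, filled where a column reached 10 RPKM. Dotted lines mark 2-fold. The GH3 genes spread from -1.95 to 1.52, the hydrolases stay between the lines, and the Aux/IAA list reaches -2.97.

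Whole seedlings hold root, hypocotyl and cotyledons, and in such bulk RNA fewer cells of a type and less RNA per cell cannot be told apart. Of 12 root marker genes 5 reached 10 RPKM and none of these was called. Over all genes tested 8.69% were called higher and 5.35% lower. Of the 11 root markers with more than 3 reads in a column, the counting interval of the ratio lay below 1 for 7 and above 1 for 1. Over all genes with that many reads the shares were 36.8% and 27.7%. The summed RPKM of all 12 was 1813 in darkness and 1664 in red light, a read ratio of 0.913 (0.902 to 0.924). TIP2;3, an aquaporin of roots, made up most of this, at 1381 and 1288 RPKM. PIN2, an auxin carrier of the root tip, was at 18.8 and 11.5 RPKM, and NRT2.1 had no read in either column. The part of root share in the GH3 values was not tested.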

How the data were processed

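RNA-seq of 2 dark-grown and 2 red-light-grown samples was used, mapped to their groups by the light condition in the labels. Per the labels' protocols, poly(A) RNA was sequenced with standard Illumina libraries. The submitters' processing notes name TAIR10 as the genome build. The sources used here give no aligner, counter or strand setting. The authors deposited, per the file headers, estimated counts of reads and RPKM values, 1 column of each for both conditions. A value of 0.5 stood for no read and was set to 0. The deposited RPKM equalled the reads scaled to length and column total within a relative 1.9e-07, and 99.99% of the implied lengths were multiples of 3 and hence coding lengths.

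With 1 column a condition, no test was possible. Ratios carry exact Clopper-Pearson intervals at 95%, and levels exact Poisson intervals. The reads carry no molecular identifiers and are not independent molecules, so these and the floor of 3 reads cover counting error only. Ratios and folds of RPKM were taken without the added 1, and log2 changes with it, which understates the change of low genes.

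Members were picked by locus identifier, but this group of genes, the 6 comparison lists and the naming rule were proposed with earlier results of these data known. The naming rule took all 9 members, and from each list every called gene and the one with the highest RPKM. DAO1, ILR1, GH3.15, YUC8, IAA12, IAA28, PIN2 and NRT2.1 were named outside it, after their values were seen.

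RefSeq's TAIR10.1 genome and annotation gave positions, coding sequences and promoters. By transcript, 26691 of the 27416 models were found there, 96.6% of them with the same coding length. Coding sequences were aligned with mafft 7.526. Protein sequences were not used here. Alternatives used edgeR 4.0.16 and DESeq2 1.42.0 for scaling factors only. Other software was Python 3.11.15 with scipy 1.17.1, pandas 2.3.3, matplotlib 3.10.9 and numpy 2.4.6, and R 4.3.3.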

Additional observations from a re-analysis of the deposited data

How the results depend on the processing

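No paired analysis was possible because each condition had 1 column and no replicate was named in it, and for the same reason no replicate could be left out. GH3.2 and GH3.3 remained the members called lower under TMM, DESeq2 and upper-quartile scaling, without organelle genes, with minimums of 0, 1 and 5 RPKM, with a pseudocount of 0.1 and where the whole interval had to pass 2-fold. Between 2.99% (no minimum) and 5.86% (pseudocount of 0.1) of all genes tested were called lower in these settings. With a minimum of 20 RPKM, 0 members were called lower, because GH3.2 and GH3.3 lay below it in both columns. Of all genes tested there, 6.19% were called lower. With a 4-fold threshold 0 members were called lower as well, beside 0.982% of all genes tested. There GH3.3 missed it narrowly, through the added 1. Its log2 change was -1.95 on RPKM + 1, and its fold without the added 1 was 5.14 (4.28 to 6.21). Members called higher numbered 0 in the main setting, 1 (DFL2) with a minimum of 5 RPKM and 2 (DFL2 and GH3.9) with 1 RPKM or no minimum. Over all genes tested the shares called higher were 8.69% in the main setting, 8.24% with 5 RPKM, 7.45% with 1 RPKM and 5.33% with no minimum. GH3.6 was not called in any setting but came very near the 2-fold threshold. Its log2 change was 0.996 with TMM and 0.991 with DESeq2 factors.

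The read ratio of the 9 members was 1.06, 1.11 with TMM and 1.10 with DESeq2 factors, and 0.877 without GH3.17, a change of direction. Over the 6 comparison lists, 4 genes were called higher and 4 lower. With TMM or DESeq2 factors 6 were higher (IAA12 and IAA28 added), and with upper-quartile factors or a pseudocount of 0.1 5 were higher (IAA12 added), against 4 lower in each. With minimums of 0, 1 or 5 RPKM 5 were lower (YUC3 added). With a minimum of 20 RPKM 2 were higher, and at 4-fold 0 were higher and 2 lower. The log2 changes of the 8 members with a ratio kept their sign in the 40 recalculations with another scaling or pseudocount, and 36 of these moved them by less than the counting error. The other settings do not alter the log2 changes. Over 1000 bases before the start, TGTCGG occurred in 1 member and CATGTG in 6. TMM moved the median log2 change of the genes of at least 10 RPKM from -0.11 to -0.04.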
